A study of Mus musculus with 20 samples.

Results

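Maps of RNA polymerase II (Pol II) in mouse thymocytes were compared: the peak list of Pol II phosphorylated on serine 5 (Ser5P), with 10644 peaks and that of total Pol II, with 18037 peaks. Together they held 28681 of the 270514 peaks in the 16 peak lists of the series. Each list was split by the other. A peak that had at least 1 bp in common with a peak of the other list is called shared, and a peak with none is called unshared. This gave 7356 shared and 3288 unshared Ser5P peaks, and 6616 shared and 11421 unshared total Pol II peaks.

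All lists came from CD4+/CD8+ double-positive thymocytes, an intermediate stage of T-cell development, taken from the thymus of wild-type C57BL/6 mice aged 5 to 6 weeks. The cells were purified on an AutoMACS by their CD8 and then their CD4 surface protein, and no treatment or genetic change was labelled. Chromatin immunoprecipitation and sequencing (ChIP-seq) used the N-20 antibody for total Pol II and a separate antibody for Ser5P, with phosphatase inhibitors added for the phosphorylated forms. FAIRE, an antibody-free way to recover open chromatin, was deposited beside them. Each target had 1 list, so variation between animals could not be measured. Of the 20 samples, 4 had no peak list and were not analysed here. The number of reads behind each list was unknown. The identity of the cells could not be checked against marker genes, because the peak lists carried no gene names and no annotation of their genome build was used.

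The largest subunit of Pol II ends in a tail of repeated residues. While the polymerase is in the preinitiation complex this tail is mostly unphosphorylated. The kinase of TFIIH then phosphorylates serine 5 of the repeats as the polymerase starts and leaves the promoter, and other kinases add serine 2 phosphorylation (Ser2P) during elongation. Total Pol II antibodies are used to detect polymerase along the whole path, whereas Ser5P is known to be concentrated near start sites. TBP binds promoter DNA at the first step of complex assembly. H3K4me3 marks active promoters, H3K4me1 marks enhancers and promoter flanks, and H3K36me3 marks the bodies of transcribed genes.

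Most Ser5P peaks lay on a total Pol II peak, whereas most peaks of the longer total Pol II list lacked Ser5P. Of the Ser5P peaks, 69.1% were shared (95% Wilson interval 68.2 to 70.0, which covers counting error only, as all intervals here do). Of the total Pol II peaks, 36.7% were shared (36.0 to 37.4). These shares rest on peak number, and by length the lists were closer. Shared peaks held 82.9% of the length covered by Ser5P peaks and 56.0% of the length covered by total Pol II peaks. The share of total Pol II peaks also depended on list length. When that list was cut by area to the length of the Ser5P list, 53.1% of its peaks were shared (52.1 to 54.0). In the full lists, the share of Ser5P peaks with total Pol II ran from 63.3% on chromosome 16 to 74.7% on chromosome 7. This was over the 20 chromosomes with at least 100 peaks in the list. For total Pol II peaks with Ser5P it ran from 30.3% on chromosome 9 to 48.9% on chromosome 13.

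Shared peaks were wider and larger than unshared ones in both lists. A wider peak has more bases with which to meet the 1 bp rule, and this part was not separated. The median width was 170 bp (quartiles 100 and 260) for shared Ser5P peaks and 80 bp (50 and 140) for unshared ones. It was 230 bp (150 and 340) for shared total Pol II peaks and 120 bp (80 and 160) for unshared ones. Peaks of at least 500 bp numbered 387 among shared and 1 among unshared Ser5P peaks. In the total Pol II list they numbered 813 among shared and 120 among unshared peaks, so broad polymerase peaks without Ser5P existed. Area, the authors' summed signal over a peak, was used only to rank peaks within a list. The median area percentile was 61.6 for shared against 29.2 for unshared Ser5P peaks, and 77.3 against 36.2 for total Pol II peaks. When the overlap had to cover at least 50% of the shorter peak, 65.4% of Ser5P and 34.6% of total Pol II peaks were shared.

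Ser5P presence climbed with the area of the total Pol II peak in every step from the lowest to the highest decile of the list. Total Pol II peaks were ranked by area and cut into 10 deciles of 1803 or 1804 peaks. In the lowest decile 9.65% carried Ser5P (8.37 to 11.1), with a median width of 40 bp. The fifth decile stood at 20.3% (18.6 to 22.3), the eighth at 54.5% (52.2 to 56.8) and the ninth at 74.9% (72.8 to 76.8). In the highest decile, with a median width of 490 bp, 92.3% carried Ser5P (91.0 to 93.5). Most of the increase therefore fell in the upper 5 deciles. The reverse view was less steep: total Pol II was present at 41.9% of Ser5P peaks in the lowest Ser5P decile (38.9 to 44.9), at 60.4% in the fifth and at 99.0% in the highest (98.2 to 99.4).

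**Figure D1:**
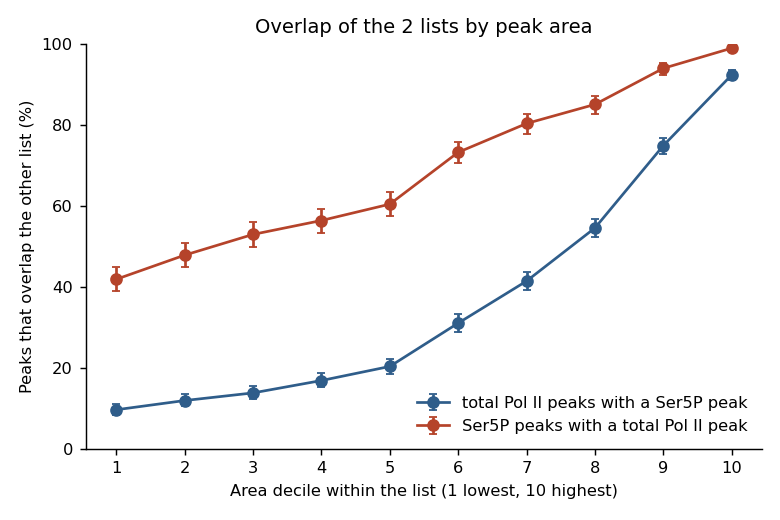
Percentage of peaks that overlap the other list (y axis) by area decile within the list (x axis), for total Pol II peaks and for Ser5P peaks, with 95% Wilson intervals as bars. Total Pol II peaks go from 9.65% to 92.3% with Ser5P, and Ser5P peaks from 41.9% to 99.0% with total Pol II.

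Width gave a similar order up to the broadest peaks. The part of it that comes from wider peaks meeting the overlap rule more readily was not tested. Ser5P was present at 12.0% of total Pol II peaks up to 100 bp wide (11.1 to 12.9), 29.6% of those of 110 to 200 bp, 61.0% of those of 210 to 300 bp and 75.8% of those of 310 to 500 bp. The share was 89.0% (86.5 to 91.1) at 510 to 1000 bp. Above 1000 bp it was 80.2% (73.8 to 85.4), 146 of 182 peaks.

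Where peaks of both forms overlapped, their midpoints lay close together, though the overlap rule itself limits how far apart they can lie. Each shared Ser5P peak was paired with the total Pol II peak it overlapped most, which gave 7356 pairs. The absolute distance between midpoints had a median of 45 bp (quartiles 20 and 90), on peak ends that fall in bins of 10 bp. It was at most 50 bp in 56.7% of pairs and at most 100 bp in 78.8%, and it exceeded 500 bp in 143 pairs. The signed offset in chromosome coordinates had a median of 0 bp, with 3523 pairs to one side, 3570 to the other and 263 at 0. In the 5298 pairs in which neither peak overlapped a further peak of the other list, the median absolute offset was 30 bp (15 and 60).

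**Figure D2:**
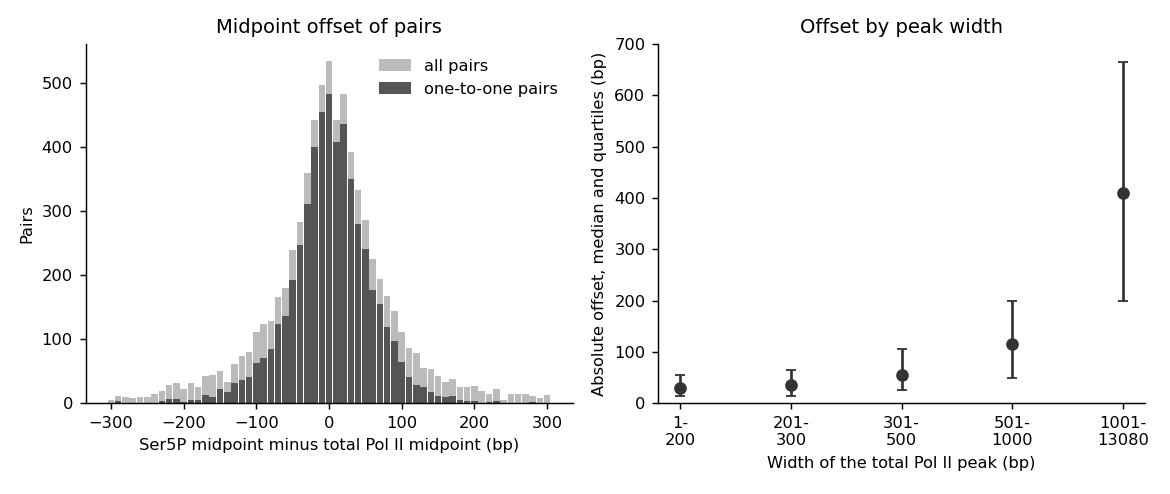
Left, number of pairs (y axis) by Ser5P midpoint minus total Pol II midpoint in bp (x axis, bins of 10 bp), for all 7356 pairs and for the 5298 one-to-one pairs, with 289 pairs outside the plotted range. Right, median absolute offset with quartiles as bars (y axis, bp) by width of the total Pol II peak (x axis, bp), from 30 bp at the narrowest to 410 bp at the widest.

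The usual arrangement was a narrower Ser5P peak within or across a wider total Pol II peak. In 47.9% of pairs the Ser5P peak lay wholly inside the total Pol II peak, in 14.6% the total Pol II peak lay inside the Ser5P peak, 23 pairs had identical ends, and 37.2% were staggered. Total Pol II was the wider of the pair in 69.7% of pairs. The overlap covered a median of 96.0% of the Ser5P peak and 60% of the total Pol II peak. Offsets grew with the width of the total Pol II peak, which also sets how far apart overlapping midpoints can lie. The median was 30 bp up to 200 bp, 55 bp at 310 to 500 bp and 410 bp (200 and 665) above 1000 bp. As a share of total Pol II width, the median offset went from 13.8% to 22.2% over the width bands, with no steady order. Across pairs, the Spearman correlation of the 2 areas was 0.38 and in one-to-one pairs 0.54, a description over sites that share their libraries.

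One broad polymerase peak could hold several Ser5P peaks. Among shared total Pol II peaks, 5804 overlapped 1 Ser5P peak, 645 overlapped 2 and 167 overlapped 3 or more, with a maximum of 31. Ser5P peaks were rarely split in this way: 7053 overlapped 1 total Pol II peak, 277 overlapped 2 and 26 overlapped 3 or more. Few pairs stood at the edge of the overlap rule. The largest overlap was a single bin of 10 bp for 117 Ser5P peaks, and 86 Ser5P and 82 total Pol II peaks touched the other list without sharing a base.

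The side of the gene body was taken from H3K36me3. A pair was given a direction where an H3K36me3 peak lay within 10 kb on 1 side only and none overlapped the total Pol II peak, which held for 3136 pairs. Ser5P lay on the H3K36me3 side of total Pol II in 53.0% (51.3 to 54.8) of the 3034 pairs with an offset other than 0, and the median signed offset was 5 bp. In one-to-one pairs the share was 54.1% (52.0 to 56.1). TBP was present in 2550 of the pairs with a direction. Measured from the TBP peak in these, the total Pol II midpoint lay on the H3K36me3 side in 54.3% (52.3 to 56.2, median 10 bp) of the 2490 with an offset other than 0, and the Ser5P midpoint in 56.5% (54.5 to 58.4, median 15 bp) of 2494. In the same pairs with TBP, Ser5P lay on the H3K36me3 side of total Pol II in 53.3% (51.4 to 55.3) of 2466. These displacements are of the size of 1 bin, and the intervals take sites as independent. Total Pol II peaks without Ser5P showed 50.2% (47.4 to 53.1) on the H3K36me3 side of TBP, beside 54.3% (52.2 to 56.4) of those with Ser5P. No interval was computed for the difference between these shares.

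TBP was present at the total Pol II peak in 5861 of the pairs (79.7%). The median distance to the TBP midpoint was 55 bp (25 and 95) for total Pol II and 60 bp (lower quartile 25) for Ser5P. Ser5P was the farther from TBP in 54.7% of these pairs and the nearer in 40.6%. In the 4121 one-to-one pairs with TBP, Ser5P was the farther in 50.1%, and the share in which it was the nearer was not counted. The median distance to TBP in these was 45 bp for total Pol II and 50 bp for Ser5P. Total Pol II lay between TBP and Ser5P in 40.2% of the pairs, Ser5P between TBP and total Pol II in 28.9%, and TBP between both in 22.7%.

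Total Pol II peaks with Ser5P more often carried TBP, TFIIB and TFIIE of the preinitiation complex, FAIRE and H3K4me3 than those without. TFIIH, Taf1, TFIIA and TFIIF, given below, differed less. TBP overlapped 78.2% (77.2 to 79.2) of shared and 33.6% (32.8 to 34.5) of unshared total Pol II peaks, a difference of 44.6 percentage points (Newcombe 95% interval 43.3 to 45.9). TFIIB, which joins TBP to the polymerase, stood at 53.9% against 16.6%, and TFIIE, which recruits TFIIH, at 58.6% against 25.3%. FAIRE stood at 31.5% against 11.8%, and H3K4me3 at 88.0% against 50.6%, a difference of 37.4 points (36.2 to 38.6). Each of these 5 differences had the same sign on all of the 20 chromosomes counted. Within area deciles the mean difference was 29.2 points for TBP, 27.2 for H3K4me3, 15.3 for TFIIE, 13.5 for TFIIB and 7.04 for FAIRE. It was positive in 10 of 10 deciles for each, so the mean excess was smaller at equal area. The excess was uneven and was largest for all 5 in the highest decile, where 138 peaks were unshared. Over the deciles it ran from 0.21 to 31.1 points for FAIRE, 4.08 to 54.7 for TFIIB and 2.01 to 57.7 for TFIIE. For TBP it ran from 14.5 to 61.4 and for H3K4me3 from 16.7 to 52.3. By midpoint the FAIRE difference was 8.79 points, and between peaks of the upper 50% of both lists by area the H3K4me3 difference was 20.9 points.

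TFIIH, whose kinase makes the Ser5P mark, showed a small difference in peak overlap. Its peaks overlapped 21.4% (20.4 to 22.4) of shared and 16.5% (15.9 to 17.2) of unshared total Pol II peaks, a difference of 4.86 points (3.66 to 6.06) seen on 16 of 20 chromosomes. Within area deciles shared peaks were higher in 3 of 10: the difference ranged from -9.37 points to 36.9 points, the latter in the highest decile, with 44.9% against 7.97%. When the midpoint of the total Pol II peak had to lie in the TFIIH peak, the difference was -1.51 points, and when gaps of up to 200 bp counted as overlap it was 0.54 points. In the upper 50% of both lists by area it was 12.5 points. The difference also turned with the marks at the peak. In H3K4me3, TFIIH overlapped 19.1% of shared and 4.77% of unshared total Pol II peaks. With H3K4me1 and no H3K4me3 it stood at 26.3% against 8.88%. With H3K36me3 and neither H3K4 mark it stood at 44.1% of 34 peaks against 4.60%. With none of the 3 marks it stood at 43.3% against 53.1%. Area was not held fixed in these classes. Taf1, the largest subunit of TFIID, stood at 14.0% of shared and 15.1% of unshared peaks, with an interval of the difference from -2.08 to 0.05 points. TFIIA stood at 14.0% against 9.27%, but within area deciles it was higher at shared peaks in 3 of 10. TFIIF, which had the shortest list of the series, stood at 4.13% against 3.53% and was higher in 7 of 10. The coactivator CBP (13.5% against 7.79%) and the T-cell factor ETS1 (8.01% against 3.71%) were also more frequent at shared peaks, but within deciles CBP was higher in 7 and ETS1 in 6 of 10.

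**Figure D3:**
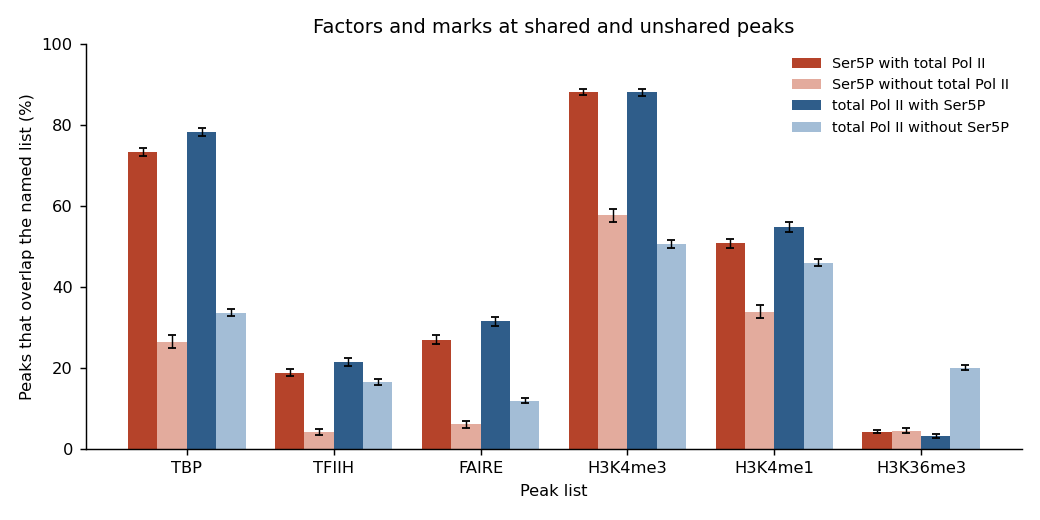
Percentage of peaks (y axis) that overlap the TBP, TFIIH, FAIRE, H3K4me3, H3K4me1 or H3K36me3 list (x axis) for the 7356 shared and 3288 unshared Ser5P peaks and the 6616 shared and 11421 unshared total Pol II peaks, with 95% Wilson intervals. The pale bars of unshared peaks are lower except for H3K36me3, where unshared total Pol II peaks stand at 20.1% and the other sets below 5%.

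The H3K4me1 difference turned with the area of the peaks and the overlap rule. It overlapped 54.7% (53.5 to 55.9) of total Pol II peaks with Ser5P and 46.0% (45.1 to 46.9) of those without. Within area deciles the sign turned, with a mean difference of -4.71 points and a higher share at shared peaks in 1 of 10 deciles. By midpoint it turned as well, at 36.0% of shared and 40.8% of unshared peaks.

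H3K36me3 went the other way at total Pol II peaks. It overlapped 3.17% (2.78 to 3.62) of those with Ser5P and 20.1% (19.4 to 20.8) of those without, a difference of -16.9 points (-17.7 to -16.0), negative on 20 of 20 chromosomes and in 10 of 10 area deciles. Ser2P, the elongation form, overlapped 3.25% of shared and 9.72% of unshared total Pol II peaks and was lower at shared peaks in 10 of 10 deciles. Read from the mark, 8.39% (7.37 to 9.54) of the 2503 total Pol II peaks in H3K36me3 carried Ser5P, and 41.2% (40.5 to 42.0) of the 15534 outside it did. Peaks in H3K36me3 were narrower, with a median of 110 bp against 150 bp. At equal area the share in H3K36me3 was lower in each of the 10 deciles: it was 0.75% against 13.3% in the lowest, 27.2% against 78.4% in the ninth and 55.9% against 96.3% in the highest.

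**Figure D4:**
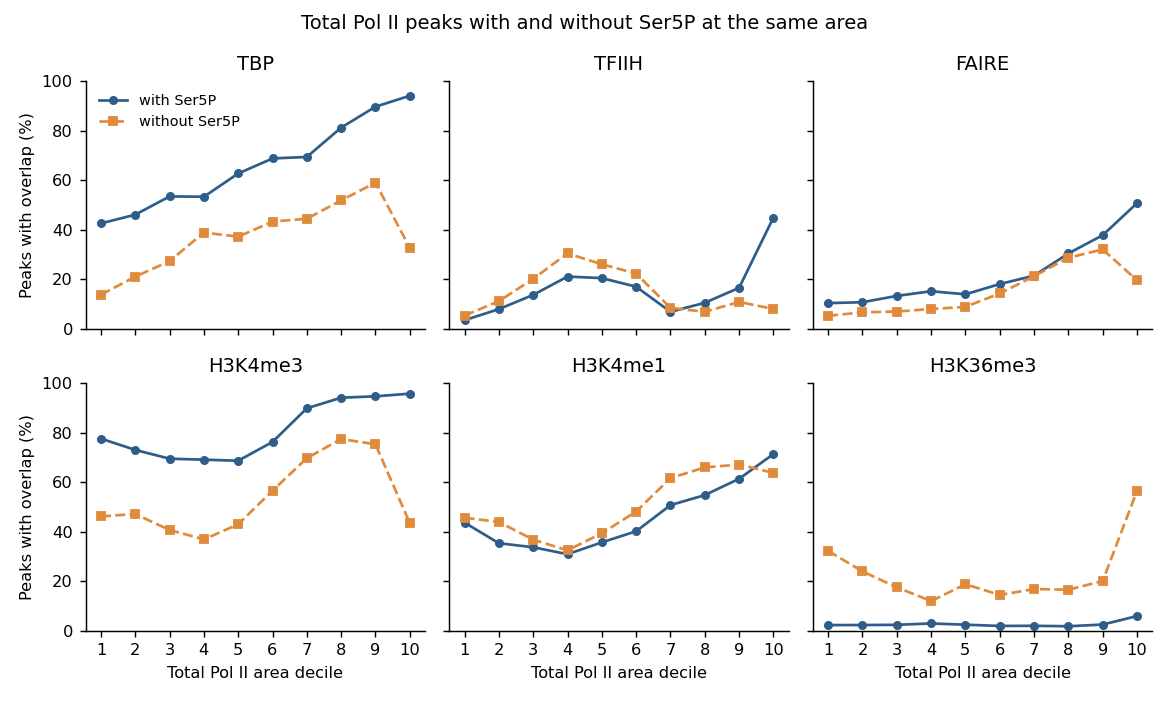
Percentage of total Pol II peaks that overlap each of 6 lists (y axis) by total Pol II area decile (x axis), separately for peaks with and without Ser5P. The lines for TBP and H3K4me3 stay apart in all 10 deciles, those for TFIIH and H3K4me1 cross, and H3K36me3 reaches 56.5% at the 138 peaks without Ser5P in the highest decile.

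Ser5P peaks without total Pol II had lower shares than shared Ser5P peaks in 13 of the 14 other lists. TBP overlapped 73.4% (72.4 to 74.4) of shared and 26.5% (25.0 to 28.0) of unshared Ser5P peaks, a difference of 46.9 points (45.1 to 48.7). TFIIB stood at 50.1% against 6.20%, TFIIE at 54.9% against 8.49%, TFIIH at 18.8% against 4.14% and FAIRE at 27.0% against 6.02%. H3K4me3 was the most frequent in both sets, at 88.1% (87.3 to 88.8) of shared and 57.6% (55.9 to 59.3) of unshared peaks, and H3K4me1 stood at 50.8% against 33.8%. H3K36me3 was rare in both, at 4.23% (3.79 to 4.71) and 4.44% (3.79 to 5.20), a difference of -0.21 points (-1.09 to 0.60) that was 1.65 points within Ser5P area deciles. At least 1 of 7 general factors (TBP, Taf1, TFIIA, TFIIB, TFIIE, TFIIF, TFIIH) overlapped 83.3% of shared and 35.2% of unshared Ser5P peaks. The TBP difference was 26.0 points within Ser5P area deciles, where it was positive in 9 of 10. By midpoint the FAIRE difference was 9.90 points in place of 21.0, the TFIIH difference 9.32 in place of 14.7 and the H3K4me1 difference 6.80 in place of 17.0.

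Ser5P was found at total Pol II peaks mainly in H3K4me3 chromatin. Of the 11606 total Pol II peaks that overlapped H3K4me3, 50.2% (49.3 to 51.1) carried Ser5P. The share was 15.1% (13.5 to 17.0) of 1605 peaks with H3K4me1 and no H3K4me3, 2.07% (1.49 to 2.88) of 1641 peaks with H3K36me3 and neither H3K4 mark, and 16.2% (14.9 to 17.5) of 3185 peaks with none of the 3 marks. Peaks in H3K4me3 were also larger, with a median area percentile of 63.2 against 38.9, 25.8 and 34.6. In the highest area decile the shares were 96.4% of 1654 peaks, 51.1% of 92, 25.7% of 35 and 68.2% of 22. In the lower 5 deciles together they were 21.9%, 7.55%, 1.13% and 11.5%.

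**Figure D5:**
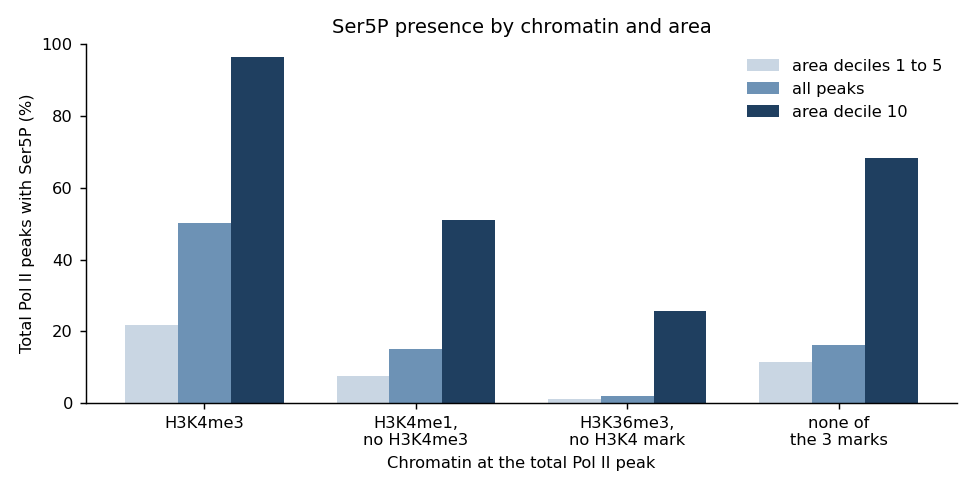
Percentage of total Pol II peaks that carry Ser5P (y axis) by the chromatin marks at the peak (x axis), for all peaks, for area deciles 1 to 5 and for decile 10. The highest bars are those of H3K4me3, at 96.4% in decile 10, and the lowest those of H3K36me3 without an H3K4 mark, at 1.13% in deciles 1 to 5.

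Peaks outside all 3 marks had their own make-up. The 2670 unmarked total Pol II peaks without Ser5P overlapped Taf1 in 53.6%, TFIIH in 53.1%, TBP in 44.8% and TFIIE in 40.1%, but FAIRE in 1.69% and TFIIB in 1.69%. The 515 unmarked peaks with Ser5P overlapped TBP in 81.4%, TFIIE in 55.9%, TFIIH in 43.3%, Taf1 in 41.7%, TFIIB in 16.5% and FAIRE in 13.4%. Within H3K4me3, by comparison, Taf1 overlapped 11.6% of total Pol II peaks with Ser5P and 2.58% of those without.

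TBP and H3K4me3 each went with Ser5P when the other was held fixed. Ser5P was present at 67.0% (65.9 to 68.1) of the 6842 total Pol II peaks with both, 27.2% (25.4 to 29.1) of 2177 with TBP alone, 26.0% (24.8 to 27.3) of 4764 with H3K4me3 alone and 4.70% (4.11 to 5.38) of 4254 with neither. Area moved with these classes, with a median percentile of 76.4, 40.7, 39.7 and 28.8, and the area was not held fixed in these classes. Taken singly, without holding the other fixed, TBP and H3K4me3 each went with a higher Ser5P share in 10 of 10 area deciles. In the fifth decile Ser5P was present at 30.1% of peaks with TBP and 13.2% without, and at 29.0% with H3K4me3 and 12.3% without. By the number of general factors at the peak, Ser5P presence was 14.3% at 0 factors, 35.9% at 1, 43.6% at 2, 57.3% at 3, 60.8% at 4, 57.7% at 5, 71.2% at 6 and 80.0% at 7, where there were 15 peaks. Peaks with 5 factors were also smaller than those with 4, with a median area percentile of 61.3 against 81.2. TBP without Ser5P marked 3842 total Pol II peaks, which overlapped TFIIE in 48.3%, TFIIB in 32.8%, TFIIH in 30.0% and H3K4me3 in 58.7%. The 5177 peaks with TBP and Ser5P overlapped TFIIE in 68.4%, TFIIB in 64.3%, TFIIH in 25.3% and H3K4me3 in 88.6%. These 5177 were also larger, with a median width of 250 bp against 130 bp and a median area percentile of 81.8 against 46.6. Area was not held fixed between these 2 sets.

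Large total Pol II peaks without Ser5P were few and were often marked by Ser2P or H3K36me3, at 63.8% (55.5 to 71.3) with at least 1 of them. In the highest area decile 138 of 1803 peaks lacked Ser5P. Of these, 60.1% (51.8 to 67.9) overlapped Ser2P, 56.5% (48.2 to 64.5) H3K36me3 and 32.6% (25.4 to 40.8) TBP. The 1665 peaks with Ser5P in the same decile overlapped Ser2P in 6.67%, H3K36me3 in 5.95% and TBP in 94.1%. The unshared peaks were also wider, at a median of 645 bp against 480 bp.

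The 5 total Pol II peaks of highest area without Ser5P illustrate this, and 4 of them fell in 1 stretch of chromosome 17. They were chr17:51926201-51932780 (6580 bp), chr17:51892001-51899140 (7140 bp), chr17:51918941-51924800 (5860 bp), chr1:139859651-139862000 (2350 bp) and chr17:51899271-51901340 (2070 bp), all in mm9. Each overlapped H3K36me3, H3K4me1 and Ser2P, and none overlapped TBP or H3K4me3. Across the 40.8 kb of the chromosome 17 stretch, total Pol II peaks covered 97.2%, H3K36me3 peaks 98.9% and Ser2P peaks 87.4%, while 2 Ser5P peaks covered 0.37%. The nearest Ser5P peak was 140 bp from the first of these peaks and 6650 to 8850 bp from the others on chromosome 17. The fifth widest unshared peak, chr9:43856531-43858830 (2300 bp), overlapped H3K36me3, H3K4me1, Ser2P and H3K4me3. The other four widest were among those named above.

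The largest shared Ser5P peaks were in the main on chromosome 13. They were chr13:23646751-23648400, chr13:23830511-23832120, chr13:23712571-23714590, chr11:87236151-87236940 and chr13:21870891-21872640, between 790 and 2020 bp wide. All 5 overlapped TBP, TFIIA, TFIIB, TFIIE, TFIIH, H3K4me3 and H3K4me1, and none overlapped H3K36me3 or ETS1. The 4 on chromosome 13 also overlapped Ser2P. They held 1 to 4 total Pol II peaks each, and 3 to 5 TBP peaks on chromosome 13. The span of 1961 kb from the first to the last of the chromosome 13 peaks held 76 Ser5P, 78 total Pol II and 131 TBP peaks.

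Dense runs of Ser5P peaks differed in what lay beneath them. Chained over gaps of up to 1000 bp, the 10644 Ser5P peaks formed 6978 stretches, of which 4986 held 1 peak, 1796 held 2 to 4 and 196 held 5 or more. The stretch chr11:52064191-52074590 held 30 Ser5P peaks on 1 total Pol II peak, with 2 H3K36me3 and 2 Ser2P peaks but no TBP or H3K4me3 peak. The stretches chr4:102785411-102796530 and chr6:41482661-41497610 held 26 Ser5P peaks each, with 15 and 17 total Pol II peaks, 17 TBP peaks in both, and H3K4me3, H3K36me3 and Ser2P.

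Unshared peaks lay both near to and far from the other list. Of the 3288 unshared Ser5P peaks, 998 lay at most 200 bp from a total Pol II peak, 597 farther and up to 1000 bp, 346 beyond that and up to 10000 bp and 1347 beyond 10000 bp. H3K4me3 overlapped 78.2% of the nearest and 35.8% of the farthest of these, and TBP overlapped 30.7% and 25.5%. None of the 3 marks was present at 15.6% of the nearest and 54.2% of the farthest. Of the 11421 unshared total Pol II peaks, 6492 lay more than 10000 bp from a Ser5P peak. H3K36me3 was most frequent at those over 1000 and up to 10000 bp away, at 36.9%, beside 7.00% at the nearest and 18.0% at the farthest. H3K4me3 overlapped 88.7% of the nearest and 38.2% of the farthest.

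A part of the unshared Ser5P peaks overlapped no called peak of any other list. Of these peaks 669 (20.3%) overlapped none of the 14 lists other than the 2 Pol II lists compared, as did 26 shared Ser5P peaks (0.35%). Of the 669, 71 lay at most 200 bp from a total Pol II peak and 477 lay more than 10000 bp from one. Among total Pol II peaks, 429 unshared (3.76%) and 31 shared (0.47%) overlapped none of the 14 lists.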

How the data were processed

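ChIP-seq and FAIRE peak lists of mouse double-positive thymocytes were used as deposited. The authors gave each peak a position and an area, which per the names of the deposited files is the area under their scaled, background-subtracted signal track (no scaling is recorded for FAIRE). Per those names, replicates had been merged before 13 lists, including Ser5P and total Pol II, and CBP, Taf1 and TFIIB had 1 replicate each. Positions are in mm9, the build named in the submitters' processing notes. The aligner, peak caller and peak threshold were not stated in the labels or headers. Area was used to rank peaks within a list.

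Overlap was at least 1 bp. Width was end minus start plus 1. Wilson and Newcombe 95% intervals cover counting error only. Chromosomes with fewer than 50 peaks in either set were left out of the counts over chromosomes. Those with fewer than 100 peaks in a list were left out of its range of shares. No p-value was computed. Named regions were the 5 shared Ser5P, 5 unshared Ser5P and 5 unshared total Pol II peaks of highest area, the 5 widest unshared total Pol II peaks and the 3 stretches with the most Ser5P peaks. The comparison, lists and rules were chosen with earlier results of these data known. Alternatives changed the overlap rule, the list length, the part of each list kept by area and the matching on area or width. Another used peak midpoints for overlap with factors and marks. Python 3.11.15, numpy 2.4.6, pandas 2.3.3, scipy 1.17.1 and matplotlib 3.10.9 were used, and the overlap and interval code was tested on simulated data. An mm9 genome and its gene models were not used here, so regions carry no gene names.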

Additional observations from a re-analysis of the deposited data

How the results depend on the processing

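Over 19 results and 88 alternative values, 15 values moved by less than their counting interval, 68 moved by more, and 5 changed the sign of a difference whose interval left out 0. Among the 68 are 3 values of the H3K36me3 difference at Ser5P peaks that are positive where the main value, whose interval held 0, was -0.21. With gaps of up to 200 bp counted as overlap, 78.4% of Ser5P peaks were shared and 43.7% of total Pol II peaks. Requiring 50% of the shorter peak gave 65.4% and 34.6%. Cutting the total Pol II list to the length of the Ser5P list gave 61.2% and 53.1%, so that most peaks of the cut total Pol II list were shared. The upper 50% of both lists by area gave 76.8% and 43.8%. The rise from the lowest to the highest total Pol II decile was 71.8 points with gaps, 74.8 points with the list cut and 74.4 points in the upper 50%. The median offset was 50 bp with gaps. The ratio of shared to unshared median width was 1.78 (Ser5P) and 1.75 (total Pol II) with gaps, 2.00 for total Pol II with 50% overlap, 2.00 and 1.47 with the list cut, and 1.41 and 1.40 in the upper 50%.

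Differences between shared and unshared Ser5P peaks, in points, were as follows. With gaps they were 43.6 for TBP, 11.5 for TFIIH, 19.2 for FAIRE, 38.1 for H3K4me3, 19.4 for H3K4me1 and -1.11 for H3K36me3. By midpoint they were 38.5 for TBP, 9.32 for TFIIH, 9.90 for FAIRE, 32.7 for H3K4me3 and 6.80 for H3K4me1. In the upper 50% they were 29.0 for TBP, 16.2 for TFIIH, 23.6 for FAIRE, 24.5 for H3K4me1 and 1.50 for H3K36me3. Within area deciles they were 26.0 for TBP, 12.9 for TFIIH, 17.7 for FAIRE and 1.65 for H3K36me3. These are means that give each decile equal weight, and the highest decile held only 11 unshared peaks. In that decile the difference was 48.4 for TFIIH, 45.8 for FAIRE and -3.51 for TBP. Within width classes they were 29.6 for TBP, 13.0 for TFIIH, 16.4 for FAIRE, 28.4 for H3K4me3 and 1.32 for H3K36me3.

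For total Pol II peaks, gaps gave 38.7 for TBP, 0.54 for TFIIH, 17.4 for FAIRE, 42.2 for H3K4me3, 11.9 for H3K4me1 and -17.9 for H3K36me3. Midpoints gave 34.8 for TBP, 8.79 for FAIRE and 36.0 for H3K4me3, and the sign changed for TFIIH (-1.51) and H3K4me1 (-4.77). The upper 50% gave 34.7 for TBP, 12.5 for TFIIH, 14.4 for FAIRE, 20.9 for H3K4me3, -2.39 for H3K4me1 and -12.0 for H3K36me3. Area deciles gave 29.2 for TBP, 1.28 for TFIIH, 7.04 for FAIRE, 27.2 for H3K4me3, -4.71 for H3K4me1 and -20.2 for H3K36me3. Width classes gave 30.4 for TBP, 2.30 for TFIIH, 7.71 for FAIRE, 27.0 for H3K4me3, -4.98 for H3K4me1 and -19.0 for H3K36me3. The cause of these shifts was not tested.

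No paired analysis was possible because each target had 1 peak list. Depth was unknown for every list, so the shares have no detection limit beside them.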

Other observations

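The Ser5P peaks of highest area without total Pol II overlapped TBP but few peaks of the later factors of the preinitiation complex. In the highest Ser5P area decile 11 peaks had no total Pol II peak, and all 11 overlapped TBP, whereas 1 overlapped TFIIB, 4 overlapped H3K4me3 and none overlapped TFIIE, TFIIH or FAIRE. Over all 1064 peaks of that decile the shares were 96.5% for TBP, so 11 of 11 is near the share of the decile, 83.1% for TFIIB, 94.3% for H3K4me3, 86.6% for TFIIE, 47.9% for TFIIH and 45.3% for FAIRE. The 5 of highest area were chr1:88424411-88424940, chr4:33334661-33335020, chr17:36368111-36368400, chr4:3762611-3762890 and chr17:80295221-80295470 in mm9, from 250 to 530 bp wide. The TBP peaks beneath the 11 had a median area percentile of 74.4 in the TBP list (range 13.7 to 95.9). Total Pol II peaks were at gaps of 10 to 755100 bp, and 4 of the 11 lay within 100 bp of one. The peaks at chr11:25000021-25000330 and chr14:104736061-104736360 also overlapped TFIIA, ETS1 and Ser2P, and lay 755100 and 184720 bp from total Pol II. These 2 were picked out after their values were seen.

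The same pattern held in part for all TBP-bearing Ser5P peaks. The 871 without total Pol II overlapped TFIIB in 14.4%, TFIIE in 16.2%, TFIIH in 7.00% and FAIRE in 13.9%. The 5401 with total Pol II overlapped TFIIB in 62.2%, TFIIE in 66.2%, TFIIH in 23.4% and FAIRE in 33.8%. The TBP peaks at the 871 were smaller than those at the 5401, with a median area percentile of 56.3 against 78.9. The 871 Ser5P peaks were smaller as well, at a median of 46.1 against 69.9 in the Ser5P list. The part of these sizes in the other shares was not tested.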
